A study of Mus musculus with 4 samples.

Results

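Mitochondrial ribosomal protein genes were followed in sorted mouse DP thymocytes, with and without intact Cxxc1. The members were all gene symbols in the count files made of Mrpl or Mrps, a number and at most 1 letter, a rule that uses no measured value. It found 77 of 35976 symbols, 48 Mrpl and 29 Mrps. DP thymocytes are the immature T cells that carry both CD4 and CD8a. They were sorted from thymus as CD24 positive, TCRb negative, CD4 positive and CD8a positive. Control mice were Cxxc1 +/+ and knockout (KO) mice Cxxc1 F/F, and both carried Lck-cre, a recombinase transgene driven in T-lineage cells. Each genotype had 2 libraries. Age, strain and number of mice were not analysed here, since the labels give none. Where 2 values stand for a genotype, library 1 comes before library 2. Cxxc1 encodes a CpG-binding subunit of the SETD1 histone H3K4 methyltransferase complexes. The labels do not tie each library to its own mouse, so p-values reflect the spread between these libraries, which may be technical.

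The mitochondrial ribosome is the machine that translates the few proteins encoded by mitochondrial DNA, all of them parts of the respiratory chain and ATP synthase. Its protein subunits are all encoded in the nucleus, made in the cytosol and imported, and they assemble on ribosomal RNAs that the mitochondrial genome supplies. The small subunit holds the messenger RNA and reads the codons. The large subunit forms peptide bonds and passes the new chain to the inner membrane.

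Mitoribosomal protein mRNAs were mostly a little higher in KO than in control DP thymocytes, and the large and small subunit genes differed from control by about the same amount. The log2 fold change, KO over control, was above 0 in 70 of the 77 members and had a median of 0.43, a 1.35-fold difference. Over all 20389 tested genes it was above 0 in 47.6%, with a median of -0.04, and over the 11018 genes with a mean of at least 5 CPM (counts relative to library size, scaled by TMM) in 56.7%, with a median of 0.08. No single member passed the threshold: 0 of 77 had a Benjamini-Hochberg adjusted p below 0.05 over all tested genes in the quasi-likelihood test of edgeR, where 0.451% of all genes were called (0.270% higher and 0.181% lower in KO). At an unadjusted p below 0.05 there were 11 members higher and 0 lower, against 6.97% and 6.91% of all genes. Of the 11018 genes with a mean of at least 5 CPM, 1096 were higher and 711 lower at that threshold. DESeq2 called 1 member, Mrpl48, as higher (adjusted p = 0.0445), with 2.21% of all genes called higher and 2.53% lower. In bulk RNA, a change in the mix of cells and a change in RNA per cell cannot be told apart.

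The libraries behind this differed in depth but not in whether members were measured. The control totals were 12150508 and 34820446 counts and the KO totals 36243182 and 33544428. All 77 members passed the low-count filter, with a mean of 3.47 to 78.5 CPM, and the lowest count of any member in any library was 28. Cxxc1 itself had 111 and 53.5 CPM in control against 35.7 and 39.4 CPM in KO (log2 fold change -1.12 ± 0.34 SE, adjusted p = 0.199 by edgeR and 0.0337 by DESeq2). Reads of any Cxxc1 exons that the deletion leaves in place would still count here. The source of the remaining reads was not tested, so this is a limited check of the labels.

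**Figure D1:**
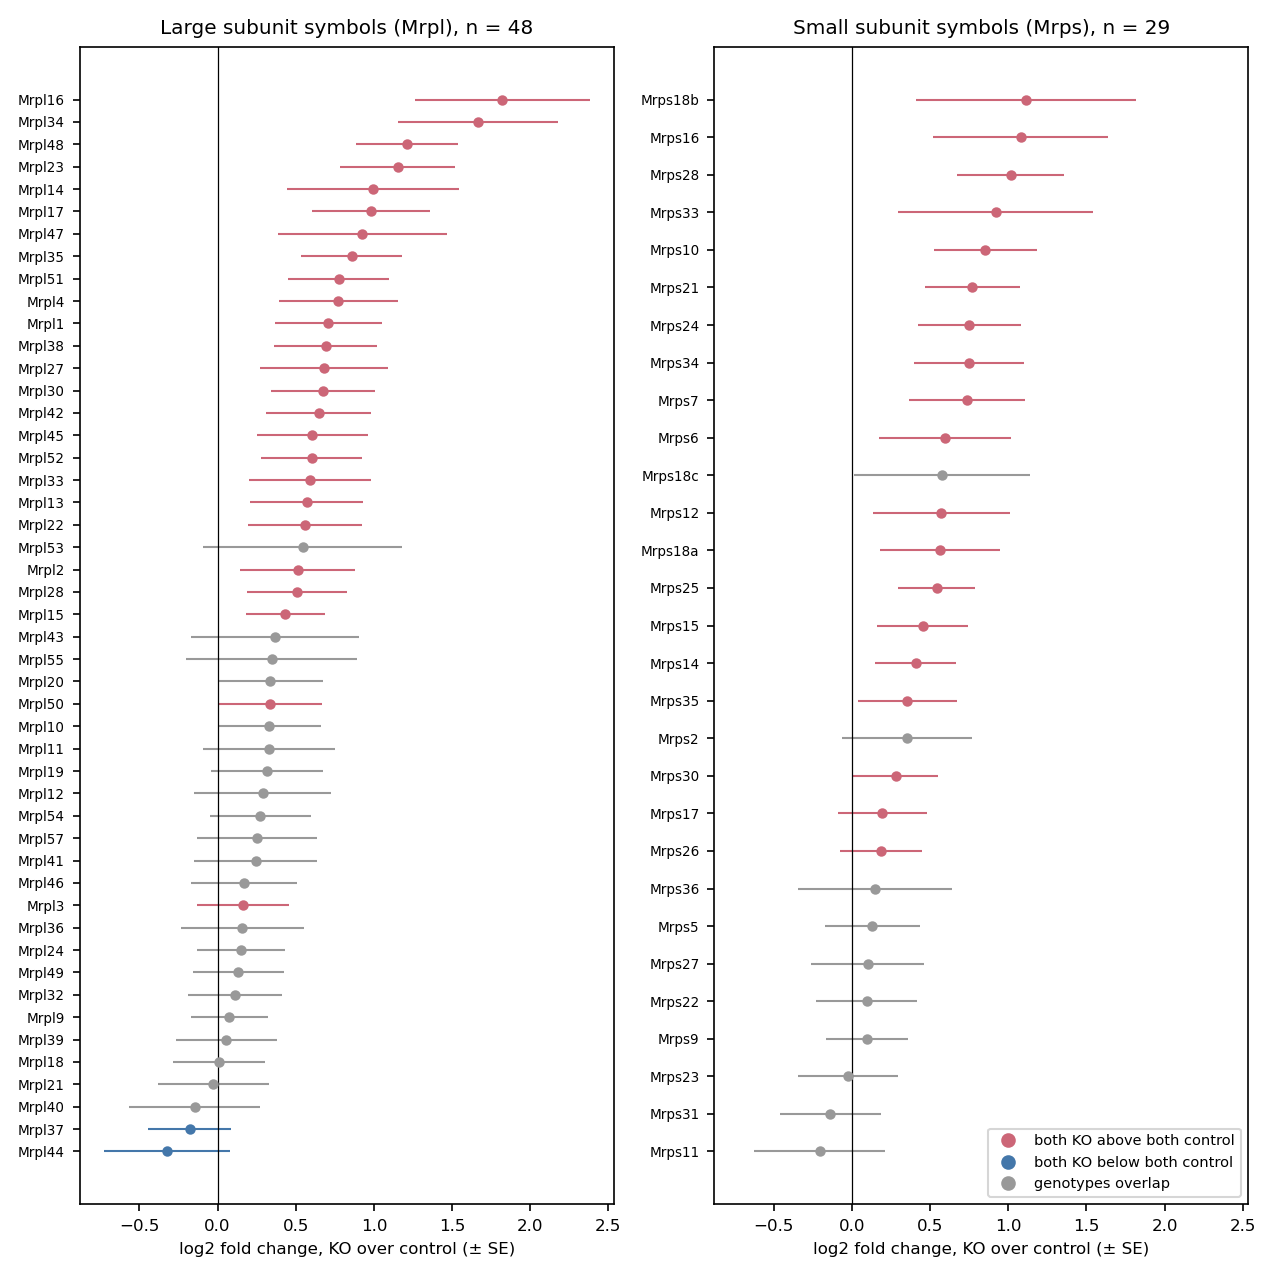
Log2 fold change of each of the 77 members, KO over control, with its standard error (bars) from edgeR's quasi-likelihood fit on all genes; large subunit symbols are on the left and small subunit symbols on the right. Points are coloured by whether both KO libraries lay above both control libraries (44 members), below them (2 members) or overlapped (31 members).

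Both KO libraries lay above both control libraries in 44 of 77 members, against 22.8% of all tested genes and 28.3% of the 11018 genes with a mean of at least 5 CPM. Both lay below in 2 members, Mrpl44 and Mrpl37, against 24% of all genes and 2166 of the 11018 genes of at least 5 CPM. The 4 pairings of a KO with a control library all had more members higher in the KO library. KO 1 was above control 1 in 69 members and above control 2 in 68. KO 2 was above control 1 in 61 and above control 2 in 56, so KO 1 stood further from the controls. Among genes of at least 5 CPM the 4 pairings had 50.9% to 58.4% of genes higher.

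Summed over members, the level was 1645 and 1592 CPM in control against 2284 and 1923 CPM in KO. The summed levels of the genotypes did not overlap, and the KO mean was 1.30-fold the control mean. As a share of all counts, members took 0.161% (exact 95% binomial interval 0.159% to 0.163%) and 0.158% (0.157% to 0.160%) in the controls, and 0.220% (0.218% to 0.221%) and 0.204% (0.203% to 0.206%) in the KO libraries. These intervals treat reads as independent draws and leave out the spread between libraries. Reads without molecular identifiers are not independent molecules, so the intervals can be too narrow even for counting error.

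The small and large subunits were compared within each library, where no scaling between libraries enters. Small subunit genes held 0.608 and 0.677 counts per large subunit count in control, against 0.637 and 0.653 in KO. Both KO values lay between the control values. The means were 0.643 ± 0.0486 and 0.645 ± 0.0109 (SD, n = 2), a difference of 0.0024, far below the spread of the controls. By gene, the median log2 fold change was 0.40 over Mrpl and 0.45 over Mrps members, and both KO libraries lay above both controls in 25 of 48 Mrpl and 19 of 29 Mrps genes. With 2 against 2 libraries an exact permutation test cannot give a p below 0.333, and none was run on these sums.

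**Figure D2:**
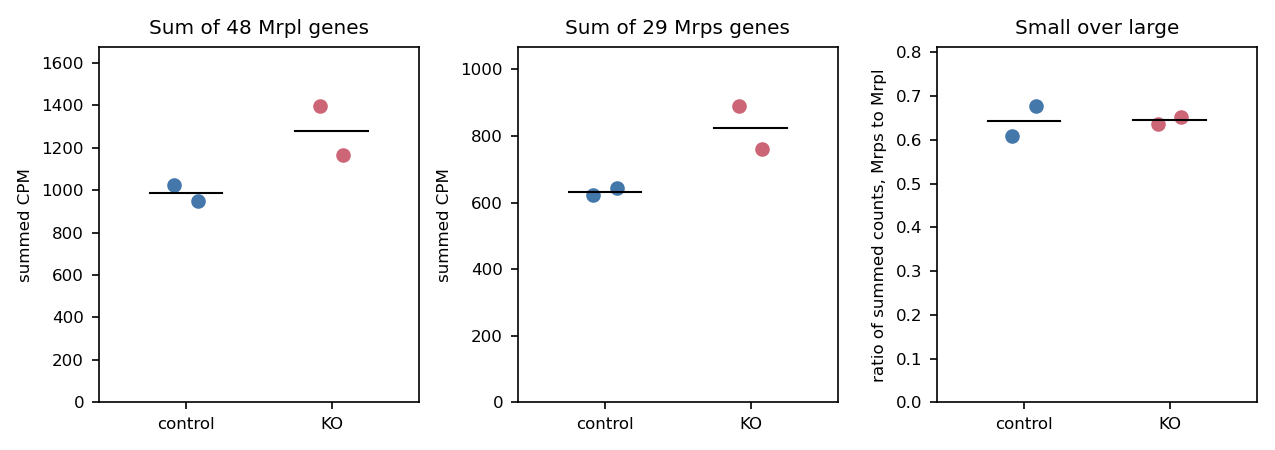
Summed level of the 48 Mrpl genes (left) and the 29 Mrps genes (middle) in CPM, and the ratio of summed Mrps to summed Mrpl counts (right), for each library (points) with the genotype mean (lines). Summed levels are 949 to 1023 CPM for control and 1164 to 1395 CPM for KO in Mrpl genes, while the KO ratios of 0.637 and 0.653 lie inside the control range of 0.608 to 0.677.

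In the large subunit, the member with the highest log2 fold change, Mrpl16, is placed at the catalytic centre. Mrpl34 (1.67) and Mrpl48 (1.21) came next and are placed at neither the centre nor the tunnel exit. The sites of the large subunit were not ranked, since each of the named ones holds few genes. Mrpl16 encodes the relative of bacterial L16, which lies near the site where tRNAs enter the peptidyl transferase centre. It had 2.86 and 2.08 CPM in control against 9.87 and 7.45 CPM in KO. Both KO libraries were above both controls, with a log2 fold change of 1.82 ± 0.56 (edgeR adjusted p = 0.208), the highest of all members. The other 3 genes placed at the centre, Mrpl27, Mrpl2 and Mrpl3, had 0.68, 0.51 and 0.16. All 4 had both KO libraries above both controls, against 52.1% of all Mrpl members and 22.8% of all tested genes. In RefSeq on GRCm38.p6, the patch release of mm10, the genes of the 5 members with the smallest p-values span chr7:100545779-100608301 (Mrpl48), chr19:11770415-11774956 (Mrpl16), chr8:71464926-71465753 (Mrpl34), chr7:142532467-142540747 (Mrpl23) and chr3:8802146-8923857 (Mrps28).

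Around the exit of the peptide tunnel, 5 of 8 genes had both KO libraries above both controls, near the 52.1% of all Mrpl members (22.8% of all tested genes). Mrpl23, a protein at the tunnel mouth, had 10.2 and 9.43 CPM in control against 26.0 and 17.6 CPM in KO (1.15 ± 0.37, edgeR adjusted p = 0.219). Mrpl17 had 9.67 and 15.4 CPM in control against 29.2 and 20.6 CPM in KO (0.98 ± 0.38, edgeR adjusted p = 0.297). KO 1 was the higher KO library for both. Mrpl45, which anchors the mitoribosome to the inner membrane, had 0.61 ± 0.35. Mrpl44, which carries an RNase III-like fold, went the other way, with 13.5 and 10.6 CPM in control against 10.5 and 8.71 CPM in KO (-0.32 ± 0.40, edgeR adjusted p = 0.802). Control 2 and KO 1 differed by less than 0.1 CPM.

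The central protuberance, the crest of the large subunit that contacts tRNAs, held the member with the smallest p-value. Mrpl48 had 14.4 and 10.9 CPM in control against 29.5 and 28.7 CPM in KO. Its KO libraries were close to each other and well above the controls (2.31-fold, log2 fold change 1.21 ± 0.33, edgeR adjusted p = 0.163). In the GENCODE M21 annotation, 8.58% of the Mrpl48 exon length overlaps Rab6a on the other strand, and the strand setting of the counts is not given. Rab6a, named for this overlap, had the opposite direction, 71.2 and 72.8 CPM in control against 52.7 and 44.4 CPM in KO (-0.57 ± 0.24, edgeR adjusted p = 0.337). Of the other 6 protuberance genes, Mrpl38 had 0.69 ± 0.33 (edgeR adjusted p = 0.396), Mrpl52 0.60, Mrpl55 0.35, Mrpl46 0.17, Mrpl18 0.01 and Mrpl40 -0.15.

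The stalk, which recruits translation factors, holds 3 members. Mrpl10, Mrpl11 and Mrpl12 had log2 fold changes of 0.33, 0.33 and 0.29, and all 3 overlapped between genotypes. So did 21 of the 48 Mrpl members and 10841 of the 20389 tested genes. Mrpl12 also binds the mitochondrial RNA polymerase. It varied more within genotypes than between them, at 79.4 and 45.3 CPM in control against 110.9 and 41.0 CPM in KO (edgeR adjusted p = 0.851). Its direction rested on KO 1: leaving that library out gave -0.56, and leaving out control 2 gave -0.06.

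Of the other 26 large-subunit genes, 13 had both KO libraries above both controls and 1 below. Over all tested genes the shares were 22.8% and 24%, and 52.1% of all Mrpl members lay above. Mrpl34, a small core protein, had 5.97 and 2.71 CPM in control against 15.3 and 11.8 CPM in KO (1.67 ± 0.51, edgeR adjusted p = 0.210). Control 2 was the lowest library. Without control 1 the log2 fold change was 2.32 (edgeR adjusted p = 0.0225), a p that rests on the 1 remaining, lowest control and takes the spread from the KO pair. Mrpl35 had 15.9 and 21.6 CPM in control against 29.1 and 38.9 CPM in KO (0.86 ± 0.32, edgeR adjusted p = 0.288). Mrpl51 had 14.3 and 14.3 CPM in control against 22.4 and 26.5 CPM in KO (0.77 ± 0.32, edgeR adjusted p = 0.335). Mrpl37 was the other member with both KO libraries below both controls, at 38.1 and 40.5 against 36.7 and 32.8 CPM (-0.18 ± 0.26, edgeR adjusted p = 0.844).

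**Figure D3:**
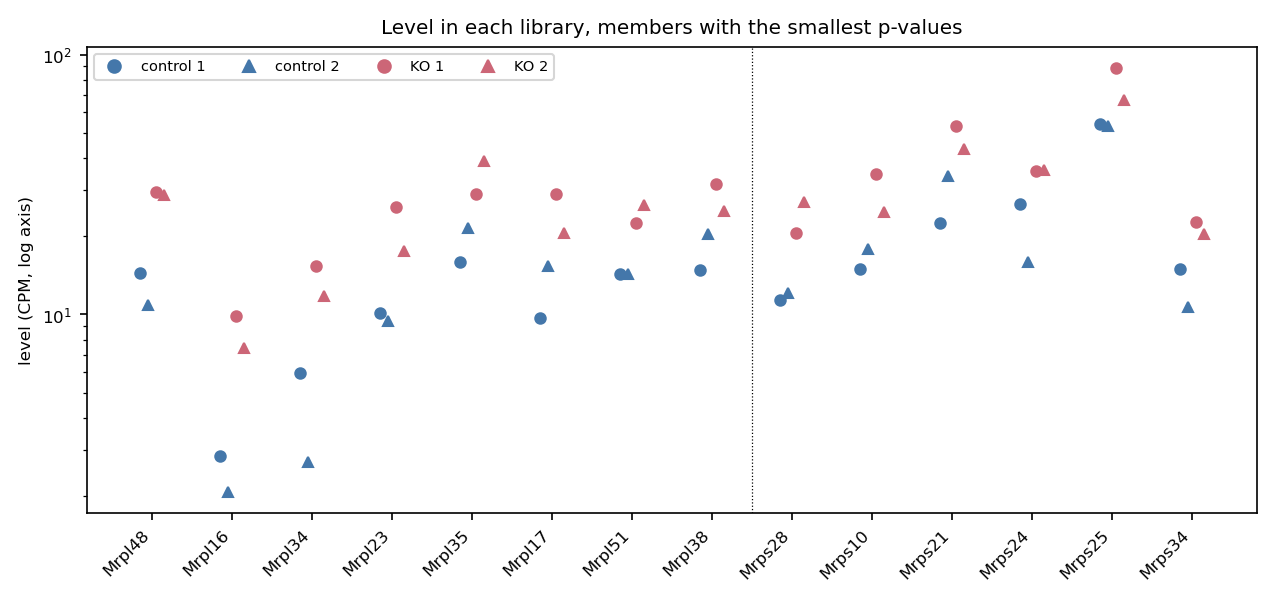
Level in CPM (log axis) of the 8 Mrpl (left of the dotted line) and 6 Mrps members with the smallest p-values, in control (blue) and KO (red) libraries; circles are replicate 1 and triangles replicate 2. Genotypes do not overlap in any of the 14, which were picked by p-value from these same libraries, so this adds no support. Mrpl16 is lowest, at 2.08 to 9.87 CPM, and Mrps25 highest, at 53.1 to 88.6 CPM.

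In the head of the small subunit, the part that swivels as messenger RNA and tRNAs move, 6 of 8 genes had both KO libraries above both controls. The share was 65.5% over all Mrps members, 22.8% over all tested genes and 28.3% over genes of at least 5 CPM. With so few genes per site, the sites of the small subunit were not ranked. Mrps10 had 14.96 and 17.9 CPM in control against 34.6 and 24.9 CPM in KO (0.85 ± 0.33, edgeR adjusted p = 0.298). Mrps24, the relative of bacterial S3 at the messenger RNA entry, had 26.7 and 15.98 CPM in control against 35.6 and 35.9 CPM in KO (0.75 ± 0.33, edgeR adjusted p = 0.357). The controls differed from each other here more than the KO libraries did. Mrps33 had 2.44 CPM in control 1, from 29 counts, against 11.2 CPM in control 2 and 13.03 and 13.2 CPM in the KO libraries. Its log2 fold change of 0.92 ± 0.62 came mainly from control 1. Without control 2 it was 2.42 (edgeR adjusted p = 0.0195), with that 1 low control assumed to vary like the KO pair.

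On the body and platform, 7 of 11 and 3 of 5 genes had both KO libraries above both controls, near the 65.5% of all Mrps members. Of the 2 members given no site, Mrps18b and Mrps23, 1 did. Mrps28 had 11.3 and 12.1 CPM in control against 20.6 and 27.0 CPM in KO, with KO 2 the higher (1.02 ± 0.34, edgeR adjusted p = 0.238). Mrps21, the relative of bacterial S21, had 22.4 and 34.1 CPM in control against 53.3 and 43.5 CPM in KO (0.77 ± 0.30, edgeR adjusted p = 0.308). Mrps25, the most abundant of these before correction for length, had 53.9 and 53.1 CPM in control against 88.6 and 67.0 CPM in KO (0.54 ± 0.24, edgeR adjusted p = 0.369). It overlaps Nr2c2 on the other strand over 58.2% of its exon length. Nr2c2, named for this overlap, had 166 and 153 CPM in control against 131 and 145 CPM in KO. Mrps34 had 14.96 and 10.6 CPM in control against 22.6 and 20.3 CPM in KO (0.75 ± 0.35, edgeR adjusted p = 0.385).

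Mrps16, a body protein, and Mrpl14, in the core of the large subunit, shared a pattern in which control 2 stood low. Mrps16 had 9.16 and 3.06 CPM in control against 14.2 and 11.2 CPM in KO, and Mrpl14 had 8.74 and 3.06 against 11.7 and 11.5 CPM. Without control 1, Mrps16 was at 2.05 (edgeR adjusted p = 0.0430), again with the 1 low control left and the spread taken from the KO pair. Mrpl55 likewise had 11.1 and 4.01 CPM in the controls, and its log2 fold change of 0.35 became -0.22 without control 2. The platform gene Mrps11 had 13.7 and 16.6 CPM in control against 17.4 and 8.91 CPM in KO. Mrpl40 had 23.5 and 11.3 CPM in control against 13.7 and 17.5 CPM in KO. Genotypes overlapped in Mrpl55, Mrps11 and Mrpl40.

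Mrps18a, Mrps18b and Mrps18c are 3 relatives of bacterial S18, of which only Mrps18c keeps that name in the unified nomenclature, and they sit at different places in the same mitoribosome, Mrps18a in the large subunit. Mrps18a had 19.1 and 10.4 CPM in control against 23.5 and 19.9 CPM in KO (0.56 ± 0.39). Mrps18b, the least abundant member, had 2.86 and 1.56 against 3.99 and 5.48 CPM (1.11 ± 0.70), and 59.1% of its exon length overlaps a predicted gene on the other strand. Mrps18c had 4.62 and 12.5 against 8.41 and 17.4 CPM, so replicate 2 was the higher library in both genotypes (0.57 ± 0.56). The edgeR adjusted p-values of the 3 were 0.581, 0.542 and 0.731. Mrps30, the other protein named for the small subunit but found in the large one, had 29.5 and 32.4 against 35.4 and 39.7 CPM (0.28 ± 0.27, edgeR adjusted p = 0.726). Mrps36, since described as a part of a mitochondrial dehydrogenase complex, had 13.5 and 6.87 against 14.4 and 7.95 CPM, with replicate 1 higher in both genotypes. Moving Mrps18a and Mrps30 to the large subunit and leaving out Mrps36 gave small-to-large count ratios of 0.560 ± 0.0530 in control and 0.563 ± 0.0033 in KO (SD, n = 2).

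Members also differed in level among themselves. Per kilobase of the union of GENCODE exons, the mean over all libraries ran from 1.56 CPM per kb for Mrpl47 to 83.1 CPM per kb for Mrpl52, with Mrps21 at 77.9, Mrpl18 at 64.4 and Mrpl12 at 52.5 CPM per kb. These lengths count every annotated exon, used in these cells or not. Between the control libraries 9 of 77 members differed by more than 2-fold, against 2 of 77 between the KO libraries. Control 1 was above control 2 in 41 members and KO 1 above KO 2 in 56.

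Short genes as a whole had higher log2 fold changes, and members are short, with a median exon length of 1363 bases against 3427 bases over protein-coding genes of at least 5 CPM. Among other protein-coding genes of at least 5 CPM the median log2 fold change was 0.27 under 1 kb, 0.21 from 1 to 2 kb, 0.10 from 2 to 4 kb and 0.01 above 4 kb. Members of the same lengths had medians of 0.60 (22 genes), 0.17 (29 genes), 0.34 (14 genes) and 0.35 (11 genes). From 1 to 2 kb the median of members was below that of other genes, and both KO libraries lay above both controls in 10 of 29 members against 35.6% of other genes. In the other 3 classes the median of members was above that of other genes. The part of transcript length in the members' difference was not tested.

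Promoters were read from RefSeq windows on GRCm38.p6, from 250 bases before to 50 after the start, for the 68 members that the table holds. In 21 of the 68 the listed start is not the outermost start of the RefSeq gene, so those windows lie at another of its starts. The CXXC finger of the Cxxc1 protein binds unmethylated CG dinucleotides. Members carried many: the window held a median of 21, against 13 over protein-coding genes and 7 over all windows, and at least 10 in 97.1% of members against 57.2% of protein-coding genes and 43.9% of all windows. The stretches that follow are the 150 bases before the start, with CG in capitals, shown because they hold no annotated exon. They belong to 3 members with both KO libraries above both controls (Mrpl48, first of its 4 listed windows, Mrpl34 and Mrps24) and to 1 whose genotypes overlapped (Mrps36). They lie at chr7:100608302-100608451 (minus strand), chr8:71464776-71464925 (plus), chr11:5707702-5707851 (minus) and chr13:100744660-100744809 (minus).
Mrpl48: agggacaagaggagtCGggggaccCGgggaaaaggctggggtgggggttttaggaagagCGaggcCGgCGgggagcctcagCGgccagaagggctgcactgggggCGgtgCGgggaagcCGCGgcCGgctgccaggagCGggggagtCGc
Mrpl34: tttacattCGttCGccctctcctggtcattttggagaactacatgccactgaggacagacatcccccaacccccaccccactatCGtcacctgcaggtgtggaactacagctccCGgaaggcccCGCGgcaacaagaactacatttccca
Mrps24: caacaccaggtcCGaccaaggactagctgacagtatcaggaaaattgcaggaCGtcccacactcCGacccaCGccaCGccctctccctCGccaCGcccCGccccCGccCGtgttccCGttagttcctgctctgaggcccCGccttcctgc
Mrps36: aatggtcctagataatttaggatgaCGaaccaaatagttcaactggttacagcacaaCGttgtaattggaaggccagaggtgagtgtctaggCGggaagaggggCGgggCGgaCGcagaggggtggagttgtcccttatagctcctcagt
The CG count of these stretches was 13 in Mrpl48, 12 in Mrps24 and 6 each in Mrpl34 and Mrps36. Over the 68 members, the median log2 fold change was 0.37 in the 37 members at or above the median CG count of the window and 0.41 in the 31 below it.

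Motifs of factors known to drive nuclear genes for mitochondrial proteins were searched in the same windows on both strands. The ETS letters CCGGAAG, bound by GABP among others, were in 24 of 68 member windows (35.3%), in 11.9% of windows of protein-coding genes and in 9.12% of all windows. The NRF1 letters GCGCATGC were in 8 (11.8%, against 3.61% and 2.80%), the YY1 letters AAGATGGCG in 8 (11.8%, against 1.94% and 1.49%) and the E-box CACGTG, bound by Myc with Max and by other factors, in 5 (7.35%, against 7.90% and 7.24%). The NRF1 letters overlap their own reverse complement in the full palindromic site, and a window was counted once. Examples before the start, with the motif in capitals, are an NRF1 match, read on the other strand, in Mrpl10 (chr11:97041428-97041475, plus strand), an ETS match in Mrpl34 (chr8:71464869-71464915, plus), inside the stretch shown above, and an ETS match, also read on the other strand, in Mrpl52 (chr14:54426842-54426888, plus).
Mrpl10: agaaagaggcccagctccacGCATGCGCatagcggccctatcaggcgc
Mrpl34: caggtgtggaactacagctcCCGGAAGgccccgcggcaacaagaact
Mrpl52: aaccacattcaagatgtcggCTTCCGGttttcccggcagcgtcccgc
The median log2 fold change was 0.57 in the 24 members with the ETS letters and 0.34 in the 44 without, 0.44 and 0.39 with and without the NRF1 letters, 0.36 and 0.39 for YY1 and 0.34 and 0.41 for the E-box. These are descriptions of letters in a window and carry no test. Mrpl46 and Mrps11 lie head to head on chromosome 7, with 41 bases between them, and had log2 fold changes of 0.17 (Mrpl46) and -0.21 (Mrps11), and genotypes overlapped in both.

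Other parts of the mitochondrial translation system were read from lists, whose counts stand against 22.8% of all tested genes with both KO libraries above both controls (28.3% at a mean of at least 5 CPM), 24% with both below and 6.97% higher at an unadjusted p below 0.05. The 5 mitoribosomal proteins with other names were all above 0, with 0 called by edgeR or DESeq2, 0 at an unadjusted p below 0.05 and a median of 0.32. Dap3, a GTP-binding small-subunit protein, had 60.9 and 52.6 against 66.5 and 62.5 CPM (0.19 ± 0.24). Chchd1 had 0.64 ± 0.43, Gadd45gip1 0.34 ± 0.40, Aurkaip1 0.32 ± 0.25 and Ptcd3 0.29 ± 0.27. The files list Mrpl58 as Ict1, outside the naming pattern, at 62.2 and 41.9 against 55.3 and 60.5 CPM.

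Of 26 mitoribosome assembly genes 0 were called by edgeR, 3 were higher at an unadjusted p below 0.05, and both KO libraries lay above both controls in 12 and below in 2, with a median of 0.37. C1qbp, a mitochondrial matrix protein needed for translation, had 32.6 and 24.3 against 72.9 and 49.3 CPM (1.11 ± 0.30, edgeR adjusted p = 0.166). It was the 1 gene of the list that DESeq2 called (adjusted p = 0.0337). Mrm1, a methyltransferase of the large ribosomal RNA, had 2.61 and 2.34 against 12.9 and 6.26 CPM (1.96 ± 0.58, edgeR adjusted p = 0.192). Of 18 translation factors 0 were called by edgeR or DESeq2, 3 were higher at an unadjusted p below 0.05, both KO libraries lay above both controls in 9, and the median was 0.46. Guf1, a back-translocation factor, had 19.1 and 27.5 against 40.4 and 44.9 CPM (0.87 ± 0.30, edgeR adjusted p = 0.250). Gfm1, the elongation factor that moves the ribosome along, had 36.1 and 50.5 against 77.3 and 62.4 CPM (0.69 ± 0.27, edgeR adjusted p = 0.308).

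Of the 13 mitochondrially encoded protein genes, which the mitoribosome translates, all 13 were above 0, 0 were called by edgeR or DESeq2, 2 were higher at an unadjusted p below 0.05, both KO libraries lay above both controls in 4 (30.8%, near the 28.3% of genes at 5 CPM or more), and the median was 0.44. ND5 had 1524 and 1781 against 3776 and 2086 CPM (0.83 ± 0.31) and COX3 had 161 and 234 against 359 and 282 CPM (0.70 ± 0.26), each with an edgeR adjusted p of 0.285. Among 15 regulators of mitochondrial genes, 1 was called by edgeR, against 0.451% of all genes, and the median was 0.18. Myc, a transcription factor that promotes growth and ribosome production, rose from 21.9 and 12.98 to 201 and 109 CPM (8.96-fold, 3.16 ± 0.38, edgeR adjusted p = 0.0156). Pprc1, a coactivator of the PGC-1 family named here after its values were seen, had 51.1 and 49.0 CPM in the controls, 164 CPM in KO 1 and 49.7 CPM in KO 2. Nrf1 (-0.32) and Gabpa (0.04), whose motifs were searched above, did not pass the test (edgeR adjusted p = 0.563 and 0.968).

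**Figure D4:**
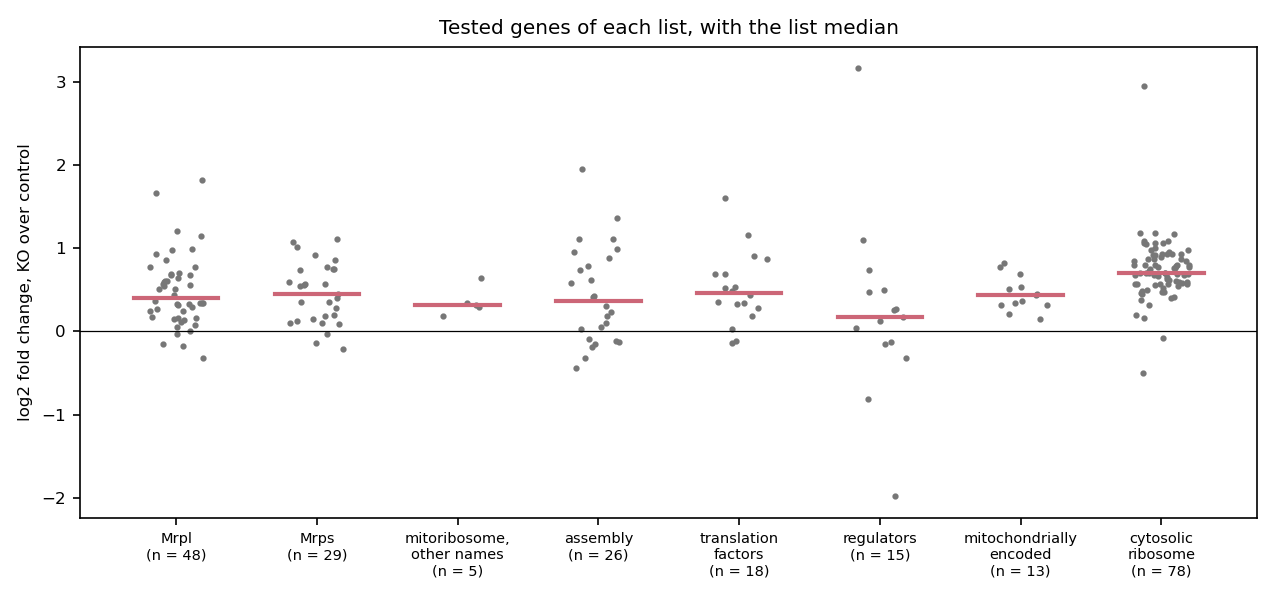
Log2 fold change, KO over control, of every tested gene (points) in the Mrpl and Mrps members and 6 related lists, with the list median (line). Medians are 0.40 and 0.45 for Mrpl and Mrps, 0.18 to 0.46 for the 5 other mitochondrial lists and 0.70 for cytosolic ribosomal proteins.

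Cytosolic ribosomal protein genes had the larger median difference, at 0.70 over 78 tested genes. In 63 of them both KO libraries lay above both controls, against 22.8% of all tested genes. By edgeR 0 were called, and by DESeq2 21 were called higher, against 2.21% of all genes. At an unadjusted p below 0.05 in edgeR, 49 were higher, against 6.97% of all genes. They took 1.68% and 1.33% of counts in the controls and 2.87% and 2.36% in the KO libraries, a 1.74-fold difference of means against 1.33-fold for mitoribosomal proteins.

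Markers of developmental stage also differed between the genotypes. Of all tested genes edgeR called 0.181% lower and 0.270% higher. Of 12 DP markers 3 were called lower by edgeR (Cd4, Cd8a and Dntt) and 0 higher. The summed level of the DP markers was 12990 to 16536 CPM in control and 6395 to 9145 CPM in KO libraries. Of 6 markers of the earlier double-negative stage 3 were called higher (Il2ra, Il7r and Dtx1) and 0 lower, with a summed level of 66.9 to 76.1 CPM in control and 232 to 462 CPM in KO. The markers within a list did not all go 1 way. Ptcra, placed in the DP list, had 13.5 and 4.27 CPM in control against 49.9 and 26.5 CPM in KO (edgeR adjusted p = 0.138). Cd44, placed in the double-negative list, had 30.3 and 35.2 against 11.7 and 15.003 CPM (edgeR adjusted p = 0.124). A listed gene need not be limited to the stage of its list. These genes therefore do not show whether, or in which direction, the stage mix differed. KO 1, the library with more members above the controls, had the higher double-negative and the lower DP sum. Of 6 erythroid markers 1 was called higher (Hba-a1) and 0 lower, with sums of 8.66 to 14.02 CPM in control and 26.2 to 38.0 CPM in KO. The 4 globin genes were at 0 in both controls and above 0 in both KO libraries. Alas2, which made up most of the control sums, had 8.24 and 14.02 CPM in control against 11.5 and 15.7 CPM in KO. Of the other lists, Ms4a1 (B cell) and C1qa (macrophage) were at 0 in both controls. Csf1r (macrophage) and H2-Aa (dendritic cell) were at 0 in control 1, and Sox13 and Ncr1 (gamma delta T and NK) in control 2. No marker of B cells, macrophages, dendritic cells, thymic epithelium or gamma delta T and NK cells was called. Their sums were 8.02 to 9.67, 5.38 to 13.7, 10.8 to 18.8, 5.55 to 8.48 and 3.46 to 13.03 CPM in control and 7.92 to 10.8, 8.98 to 13.9, 9.97 to 11.4, 13.9 to 16.4 and 3.32 to 7.49 CPM in KO libraries. Epcam made up most of the thymic epithelial sums in KO, with 1.09 and 4.88 CPM in control against 11.6 and 15.1 CPM in KO. Aire was also higher in both KO libraries than in both controls. Foxn1, Krt5, Krt8 and Psmb11 were lower in both, so this sum does not stand for the list as a whole. The part of all the listed markers in the members' difference was not tested.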

How the data were processed

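Bulk RNA-seq was made from total RNA of sorted DP thymocytes with a SMART-seq kit, per the labels' protocols. The deposited files hold raw counts per gene symbol, 1 file per library. Per the file headers the authors aligned reads with HISAT2. Tools and builds listed in the submitters' processing notes, without roles, were the genome mm10, featureCounts 2.0.8, edgeR 3.36.0, HISAT2 2.2.1 and cutadapt 4.0. The sources used here give no annotation, strand setting or rule for reads that match several places.

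Counts were fitted in R 4.3.3 with edgeR 4.0.16. The filter was filterByExpr (minimum count 10, minimum total 15), scaling was by TMM, and genotype was the only term of the quasi-likelihood test. P-values are two-sided and adjusted over all 20389 tested genes, with a threshold of 0.05, and standard errors are the log2 fold change divided by the square root of F. The test was checked on counts simulated from these libraries, where it called 14% of 2-fold and 68% of 4-fold differences. The median difference of the members, 1.35-fold, was smaller than both, so most differences of that size would go uncalled. DESeq2 1.42.0, other scalings and filters, a replicate block and leaving out each library were alternatives. Sites on the mitoribosome are textbook assignments.

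Named genes were the 8 Mrpl and 6 Mrps members of smallest p, the 4 highest and 4 lowest fold changes and the 4 largest differences within each genotype at a mean of at least 5 CPM, and 6 preset members. Lists added their called genes or, with none, the 2 of smallest p. Further members are named as parts of a site or by level. The members and lists were chosen with earlier results of these data known.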

Additional observations from a re-analysis of the deposited data

How the results depend on the processing

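The direction of the Mrpl and Mrps medians held in every alternative run. The Mrps median, 0.45, was 0.35 with upper quartile scaling, 0.36 at a mean of at least 5 CPM, and 0.39 to 0.52 with single libraries left out. Members called were 0 at first, 1 with DESeq2 and with the likelihood ratio test (Mrpl48), and 2 without a filter (Mrpl34 and Mrpl48), all higher in KO. The share of all genes called higher was 2.21% with DESeq2, 2.24% with the likelihood ratio test and 1.73% without a filter. All genes called, 92 at first, were 947 with DESeq2, 997 with the likelihood ratio test, 920 without a filter, 231 at a mean of at least 5 CPM, and 9 (without KO 1) to 619 (without control 2) with single libraries left out. With a library left out, the lone library of its genotype is assumed to vary like the other pair. The replicate block gave 1599 calls, 5 of them members (Mrpl16, Mrpl23, Mrpl34, Mrpl48 and Mrps21). These 5 of 77 were all higher in KO, and 4.58% of all genes were called higher in that run. The labels give only numbers, and deviations of same-numbered libraries had a correlation of -0.0096, so the block was not taken as a pairing.

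Among the 28 members named by rule, 9 values under alternatives reversed, all with 1 library left out. With single libraries left out, Mrpl40 ran from -0.59 to 0.47 (0.06 without KO 1), Mrpl12 from -0.56 to 0.84 (-0.06 without control 2), Mrpl55 from -0.22 to 1.24, Mrps36 from -0.31 to 0.70 (-0.27 without control 2), Mrps18c from -0.035 to 1.48 and Mrps11 from -0.73 to 0.20. The cause was not tested. Control 1 had the fewest counts, which limits members such as Mrps33 and Mrps18b, at 29 and 34 counts there.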

Other observations

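Members were also grouped by their unified names, which mark proteins shared with bacterial ribosomes and those given a mitochondria-specific name, with groups chosen with the values known. Mrps18a and Mrps18b have mitochondria-specific names although they are relatives of bacterial S18. In the large subunit by structure, the 30 members with a shared name had a median log2 fold change of 0.51, with both KO libraries above both controls in 18, and the 20 with a mitochondria-specific name had 0.31, with 9. In the small subunit the medians were 0.57 over 16 members, with 11, and 0.27 over 10 members, with 6. Over all members of the large and small subunit by structure, the shares with both KO libraries above both controls were 54% and 65.4%. Over all tested genes the share was 22.8%, and over genes of at least 5 CPM 28.3%. No test was run on these classes.

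Of the 77 members, 25 have exons that overlap another gene in the GENCODE annotation. Their median log2 fold change was 0.37, against 0.44 in the 52 without overlap.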
